A study of Homo sapiens with 16 samples.

Results

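The genes described here make, cut and bind hyaluronan, and were chosen by symbol: HAS1, HAS2, HAS3, CEMIP, HYAL1, HYAL2, CD44, TNFAIP6, VCAN and HAPLN1. All 10 were found, once each, among the 61806 Ensembl genes of the deposited table. They were measured by poly(A) RNA sequencing in 16 libraries of LX-2 cells, a human stellate cell line from liver that was immortalised for culture. The groups, of 4 replicates each, were wild-type cells given PBS (WT), wild-type cells given recombinant TWEAK at 100 ng/mL (TWEAK), and 2 CRISPR/Cas9 lines given PBS, of which one lacked the isoform Fn14alpha and the other was edited for Fn14 as a whole (the Fn14alpha knockout and the Fn14 knockout). All cultures were kept for 24 h in a reduced-serum endothelial medium before 2 h of TWEAK or PBS. TWEAK is a cytokine of the TNF family and Fn14, encoded by TNFRSF12A, is its receptor. The labels do not say whether a knockout line is 1 clone or a pool, so an effect of the edit and a difference between cell lines cannot be told apart. Whether replicates came from separate cultures is also unstated, and p-values therefore reflect only the spread among these libraries, which may be technical.

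Hyaluronan is a long unbranched polysaccharide that synthases in the plasma membrane build from 2 activated sugars and push out of the cell as they extend it. Outside the cell it is bound by the receptor CD44, carried on proteoglycans such as versican, decorated by the product of TNFAIP6, and cut by CEMIP and by hyaluronidases. Activated stellate cells are a known source of hyaluronan in injured liver, where it accumulates together with fibrillar collagen.

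Total counts per library ran from 13335919 to 16888606. TNFRSF12A, the targeted gene, lay at 119.05 to 133.38 FPKM (reads scaled to exon length and library total) in WT. The Fn14alpha knockout had 51.83 to 64.73 FPKM of it and the Fn14 knockout 29.51 to 35.55, below every wild-type library but not at 0, and these values sum over all transcripts of the gene. On component 3 of a principal component analysis (5.43% of the variance), 2 libraries stood away from the remaining 14, namely replicate 4 of WT and replicate 1 of the Fn14 knockout, and calls of the members that change without either are given with both values. Over the 71 calls among genes of the surrounding lists, 2 were lost when both of these libraries were left out, BCAN in the Fn14 knockout against WT and FBLN1 between the knockouts. Of 12 stellate cell and myofibroblast markers, 9 had a mean of at least 1 FPKM, among them COL1A1, SPARC, TIMP1 and VIM, while LRAT, a vitamin A storage enzyme of quiescent stellate cells, was near 0 (highest library 0.01 FPKM). Of 8 hepatocyte markers 7 had a mean under 0.1 FPKM (ALB at most 0.06), and the exception, SERPINA1, was at 2.38 FPKM in WT and 0.422 in the Fn14 knockout. Of 8 leukocyte markers 6 were under 0.1 (PTPRC at most 0.02), with CD14 at 1.34 FPKM in WT, and of 8 endothelial markers 6 (CDH5 at most 0.03). The summed endothelial level, nearly all of it TIE1, was 16.6 to 18.7 FPKM in WT, 21.2 to 23.2 in the knockout of Fn14alpha and 8.30 to 9.17 in that of Fn14. The sum of 6 cholangiocyte markers, most of it SOX9, was 5.19 to 6.29 FPKM in WT and 11.3 to 12.8 in the Fn14 knockout. That of 5 mesothelial markers was 2.04 to 2.63 FPKM in WT and 3.30 to 3.71 after TWEAK. It was 2.98 to 3.61 FPKM in the knockout of Fn14alpha and 2.90 to 3.15 in that of Fn14. The summed stellate markers ran from 772 to 816 FPKM in WT and 969 to 1041 after TWEAK. They ran from 620.1 to 637 in the knockout of Fn14alpha and 1158 to 1240.1 in that of Fn14. VIM was the largest part, with means of 377.9, 611.5, 258.5 and 446.9 FPKM in that order. After TWEAK COL1A1 (133.4 to 120.3 FPKM), SPARC (104.7 to 95.8) and COL3A1 (23.7 to 17.9) were lower, and TAGLN (25.4 to 28.9) and THY1 higher. In the Fn14 knockout COL3A1 (8.33) and COL1A2 (0.16) were below WT, and COL1A1, SPARC, TIMP1 and TAGLN above it. The markers did not move together, so the sum is not a measure of stellate cell identity. The part of these marker levels in the results below was not tested.

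CD44 was by far the most abundant member, with 66.3 to 81.7% of the summed FPKM of all members in each library. It was followed by HYAL2 (mean over 16 libraries 12.3 FPKM), HAS2 (4.73), VCAN (4.51), TNFAIP6 (2.29) and CEMIP (1.67). HAS3 (0.436), HYAL1 (0.378) and HAS1 (0.0638) were low, and HAPLN1 had 0 counts in all 16 libraries. 8 members passed the filter on low counts and were tested with edgeR, and HAS1 and HAPLN1 did not. A gene was called at an edgeR false discovery rate of 0.05 over all 16029 genes tested.

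After TWEAK, 2 of the 8 tested members, CD44 and CEMIP, were called and both were higher. Of all genes 4.82% were called higher and 2.05% lower, 6.87% in either direction. Against WT, 5 were called in the Fn14alpha knockout, CEMIP higher (background 3207 of 16029 genes, 20%) and TNFAIP6, VCAN, HAS2 and CD44 lower (background 22.2%, and 42.2% in either direction). The Fn14 knockout had 4 calls against WT, HYAL2 and VCAN higher (background 26.6%) and TNFAIP6 and HYAL1 lower (26.3%, and 52.9% in either direction). Between the knockouts 7 were called, 4 higher in the Fn14 knockout (background 30.7%) and 3 lower (28.5%, and 59.2% in either direction). With backgrounds this high in the knockout comparisons, the number of members called is not in itself a result about them. Their median log2 fold change was 0.08 after TWEAK, −0.45 in the knockout of Fn14alpha and 0.16 in that of Fn14, beside −0.01, 0.01 and −0.01 over all genes tested. Both knockouts were compared with the same WT libraries.

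Scaling by total counts in place of TMM moved the median of all genes by more than 0.1 in both comparisons of the Fn14 knockout, to −0.12 against WT and −0.15 against the Fn14alpha knockout. With it 43.9% of the calls after TWEAK were higher, in place of 70.2%, 36.0% in place of 50.2% in the Fn14 knockout against WT, and 37.3% in place of 51.9% between the knockouts.

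**Figure D1:**
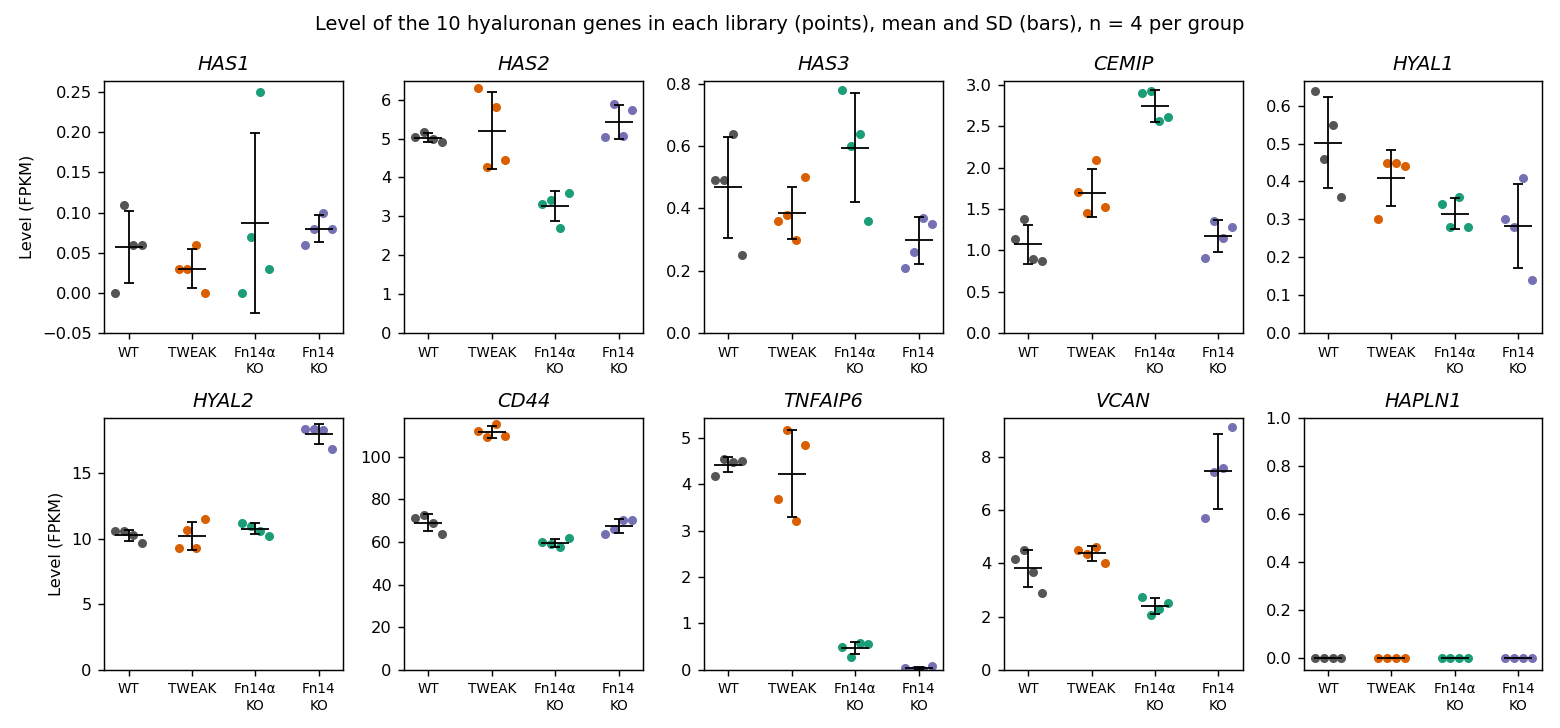
Level of each of the 10 members in FPKM (vertical axes, each with its own scale) in the 4 libraries of each group (points), with the mean and SD (black bars). TNFAIP6 lies at 4.18 to 4.54 FPKM in WT and at most at 0.08 in the Fn14 knockout, CD44 with TWEAK lies above all other libraries, and HAPLN1 is at 0 throughout.

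**Figure D2:**
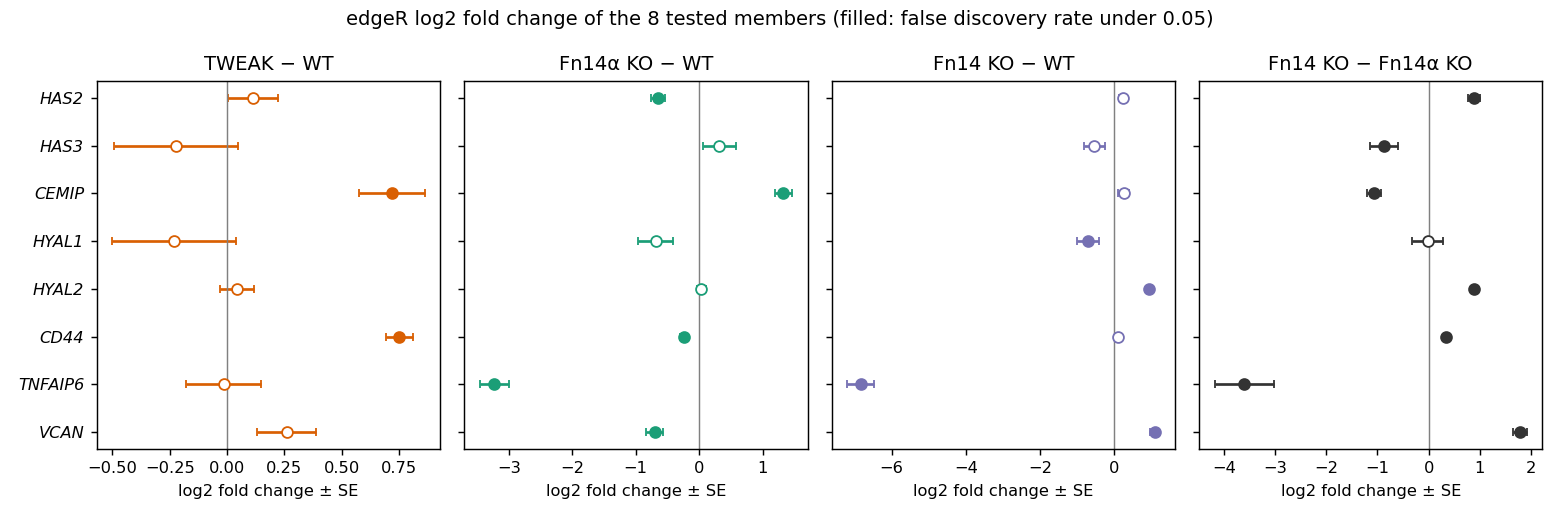
Log2 fold change with its SE from the edgeR fit (horizontal axes, a scale of its own in each panel) for the 8 tested members in the 4 comparisons. Filled points passed a false discovery rate of 0.05, and VCAN is the member whose filled points lie on opposite sides of 0 in the comparisons of the knockouts with WT.

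The synthases differ in how much of them a cell holds, and in LX-2 HAS2 was the main one. HAS2 (ENSG00000170961, GRCh38 chromosome 8, 121612116 to 121641440, minus strand), which makes long hyaluronan chains, stood at 5.04, 5.17, 4.98 and 4.90 FPKM in WT. With TWEAK it stood at 6.30, 4.27, 5.80 and 4.46 FPKM, on both sides of the WT values, and the difference did not pass (log2 fold change 0.11 ± 0.11 SE, edgeR adjusted p = 0.599). The Fn14alpha knockout libraries held 3.33, 3.43, 2.71 and 3.60 FPKM, all below every WT library. This was 1.57-fold lower than WT (−0.65 ± 0.11, edgeR adjusted p = 6.34e-05). Its level in the Fn14 knockout was 5.05, 5.88, 5.07 and 5.73 FPKM, which overlapped WT, and the difference did not pass (0.23 ± 0.11, edgeR adjusted p = 0.0810), although it did without Fn14 knockout replicate 1 (adjusted p = 0.0490, range over its alternatives 0.0435 to 0.446). The Fn14 knockout was 1.84-fold higher than the Fn14alpha knockout (0.88 ± 0.11, edgeR adjusted p = 4.59e-07), with no overlap of the libraries. By mean level the order was Fn14 knockout, TWEAK, WT and Fn14alpha knockout, and the first 3 overlapped.

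HAS2-AS1, a noncoding RNA read from the opposite strand of HAS2, had 38 counts over the 4 WT libraries, 29 with TWEAK, 12 in the knockout of Fn14alpha and 49 in that of Fn14. These are few beside the 1343, 1319, 809 and 1419 counts of HAS2. No source used here gives the strand setting of the counting, so reads of overlapping genes on opposite strands may not have been told apart.

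HAS3, a synthase of shorter chains, was at 0.49, 0.49, 0.64 and 0.25 FPKM in WT and 0.36, 0.38, 0.30 and 0.50 with TWEAK (at 21 to 53 and at 25 to 35 counts per library). It was at 0.78, 0.60, 0.64 and 0.36 FPKM in the knockout of Fn14alpha and 0.21, 0.26, 0.37 and 0.35 in that of Fn14. WT overlapped every other group and no comparison with WT passed (edgeR adjusted p = 0.687 after TWEAK, 0.331 in the knockout of Fn14alpha and 0.106 in that of Fn14). The last passed without WT replicate 4 (−0.75, adjusted p = 0.0188, range over its alternatives 0.0188 to 0.348). Between the knockouts HAS3 was 1.82-fold lower in the Fn14 knockout (−0.86 ± 0.27, edgeR adjusted p = 0.00900), although the highest library of that group (0.37) lay above the lowest of the other (0.36). HAS3 ends inside the oppositely oriented CHTF8, which held more counts than it (483 against 153 over the WT libraries).

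HAS1, which needs more substrate than the other synthases, had 8 counts over the 4 WT libraries, 4 with TWEAK and 11 in each knockout. Of the 11 in the Fn14alpha knockout, 8 lay in replicate 3. The ratio to WT was 0.531 with TWEAK (95% counting interval 0.117 to 1.98), 1.49 in the Fn14alpha knockout (0.544 to 4.26) and 1.41 in the Fn14 knockout (0.517 to 4.04). These intervals, which cover counting error only, all hold 1, so no difference was detectable at this depth.

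Taking the synthases together, HAS2 made up 87.7 to 94.05% of their summed FPKM in WT. The share was 89.9 to 94.2% after TWEAK and 91.5 to 94.9% in the Fn14 knockout. For the Fn14alpha knockout, where HAS2 was lower, the share was 75.3 to 90.2% and that of HAS3 9.02 to 19.0%. The share thus overlapped between that knockout and WT.

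The activated sugars are UDP-glucuronic acid, made by UGP2 and UGDH, and UDP-N-acetylglucosamine, made by GFPT1, GFPT2, GNPNAT1, PGM3 and UAP1. All 7 genes were tested. After TWEAK 2 were higher and 5 did not pass. GFPT2, which opens the hexosamine pathway, rose from 18.0 ± 1.37 to 35.2 ± 1.78 FPKM (mean ± SD of 4 libraries), a log2 fold change of 1.02 ± 0.07 (edgeR adjusted p = 4.69e-10), and UAP1, which attaches the sugar to UDP, from 21.3 ± 2.43 to 26.5 ± 1.42 FPKM (0.37 ± 0.08, adjusted p = 0.00173). Of the hyaluronan synthases themselves, HAS2 and HAS3 did not pass after TWEAK and HAS1 was not tested, as given above.

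Of the 7, 1 was higher and 2 lower in the Fn14alpha knockout. GFPT2 fell to 12.6 ± 0.858 FPKM (−0.55 ± 0.08, edgeR adjusted p = 2.62e-06), UGDH by 0.17 and GFPT1 rose by 0.18 on the log2 scale. Of 17 alternatives, 7 ended the call of UGDH and 8 that of GFPT1 in this comparison. Against this, 3 were higher and 3 lower in the Fn14 knockout. GFPT1, the paralog of GFPT2, fell from 8.90 ± 0.349 to 4.45 ± 0.491 FPKM (−0.88 ± 0.07, edgeR adjusted p = 1.56e-10), UGP2 fell by 0.33 on the log2 scale, and UAP1 rose to 34.8 ± 2.54 FPKM (0.83 ± 0.08, adjusted p = 1.90e-09). With the median of its 20 nearest genes removed UGP2 was at 0.06 and not called (edgeR adjusted p = 0.552). GFPT2, called higher at 0.27, was called lower with that removal (−0.46, edgeR adjusted p = 2.37e-05), and 3 further alternatives ended its call. Of 17 alternatives, 6 ended the call of UGDH and 6 that of GNPNAT1 in the Fn14 knockout. The calls of GFPT1 (highest −0.39) and UAP1 (lowest 0.35) held in all 17. GFPT1 and GFPT2 moved in opposite directions between the knockouts: in the Fn14 knockout minus the Fn14alpha knockout their log2 fold changes were −1.06 ± 0.07 and 0.82 ± 0.08 (edgeR adjusted p = 4.19e-12 and 1.91e-09).

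Among the genes that cut hyaluronan, CEMIP was the one that rose both after TWEAK and in a knockout. CEMIP (ENSG00000103888, GRCh38 chromosome 15, 80779343 to 80951776, plus strand) encodes a secreted and membrane-associated protein needed for hyaluronan breakdown in fibroblasts. Its level in WT was 1.14, 1.38, 0.90 and 0.87 FPKM, and with TWEAK 1.71, 1.45, 2.09 and 1.52. Every TWEAK library was above every WT library, a 1.65-fold rise (log2 fold change 0.72 ± 0.14, edgeR adjusted p = 0.00157). The Fn14alpha knockout held 2.90, 2.93, 2.56 and 2.61 FPKM, 2.51-fold above WT (1.33 ± 0.14, edgeR adjusted p = 3.76e-08) and above every TWEAK library. The Fn14 knockout held 0.91, 1.35, 1.15 and 1.28 FPKM, within the range of WT, and did not pass (0.25 ± 0.15, edgeR adjusted p = 0.161). Without WT replicate 2 (adjusted p = 0.0312) or without Fn14 knockout replicate 1 (0.0394) it did, and the adjusted p ran from 0.0312 to 0.539 over its alternatives. The Fn14 knockout lay 2.11-fold below the Fn14alpha knockout (−1.08 ± 0.14, edgeR adjusted p = 3.46e-07).

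CEMIP held 106 to 177 counts in each WT library. Its span overlaps the oppositely oriented MESD, which was far more abundant, at mean levels of 19.3 FPKM (WT), 18.1 (TWEAK), 22.3 (Fn14alpha knockout) and 19.5 (Fn14 knockout). Set against the main synthase of the same library, CEMIP was at 0.178 to 0.267 of the HAS2 FPKM in WT, 0.271 to 0.360 after TWEAK, 0.725 to 0.945 in the knockout of Fn14alpha and 0.180 to 0.230 in that of Fn14. The ratio was higher in all libraries of the TWEAK group and of the Fn14alpha knockout than in WT.

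HYAL2 (ENSG00000068001, GRCh38 chromosome 3, 50317790 to 50322782, minus strand), a membrane-anchored enzyme that cuts large chains into fragments, was at 10.57, 10.59, 10.29 and 9.69 FPKM in WT. It overlapped WT with TWEAK (9.29, 10.67, 9.31 and 11.48 FPKM) and in the Fn14alpha knockout (11.22, 10.95, 10.59 and 10.25 FPKM), and neither comparison passed (edgeR adjusted p = 0.785 and 0.756). Its level in the Fn14 knockout was 18.39, 18.42, 18.31 and 16.82 FPKM, above all other 12 libraries. This was 1.9-fold above WT (0.92 ± 0.07, edgeR adjusted p = 1.14e-10) and 1.86-fold above the Fn14alpha knockout (0.89 ± 0.07, adjusted p = 1.68e-10).

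Genes around HYAL2 were also higher in the Fn14 knockout. The median log2 fold change of the 20 nearest tested genes was 0.49 against WT and 0.75 against the Fn14alpha knockout. With that median removed, HYAL2 was 0.43 above WT (edgeR adjusted p = 2.43e-05, range over its alternatives 1.16e-35 to 2.43e-05). Against the Fn14alpha knockout it no longer passed (0.14, adjusted p = 0.110, range over its alternatives 4.34e-33 to 0.110). For the Fn14alpha knockout minus WT the neighbours' median was −0.22, and with it removed HYAL2 was 0.25 higher (adjusted p = 0.00975, range over its alternatives 0.00975 to 0.975). TUSC2, which overlaps HYAL2 on the same strand, was at 14.5 FPKM in WT and 20.4 in the Fn14 knockout, and how reads of the shared stretch were assigned is not given in any source used here.

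**Figure D3:**
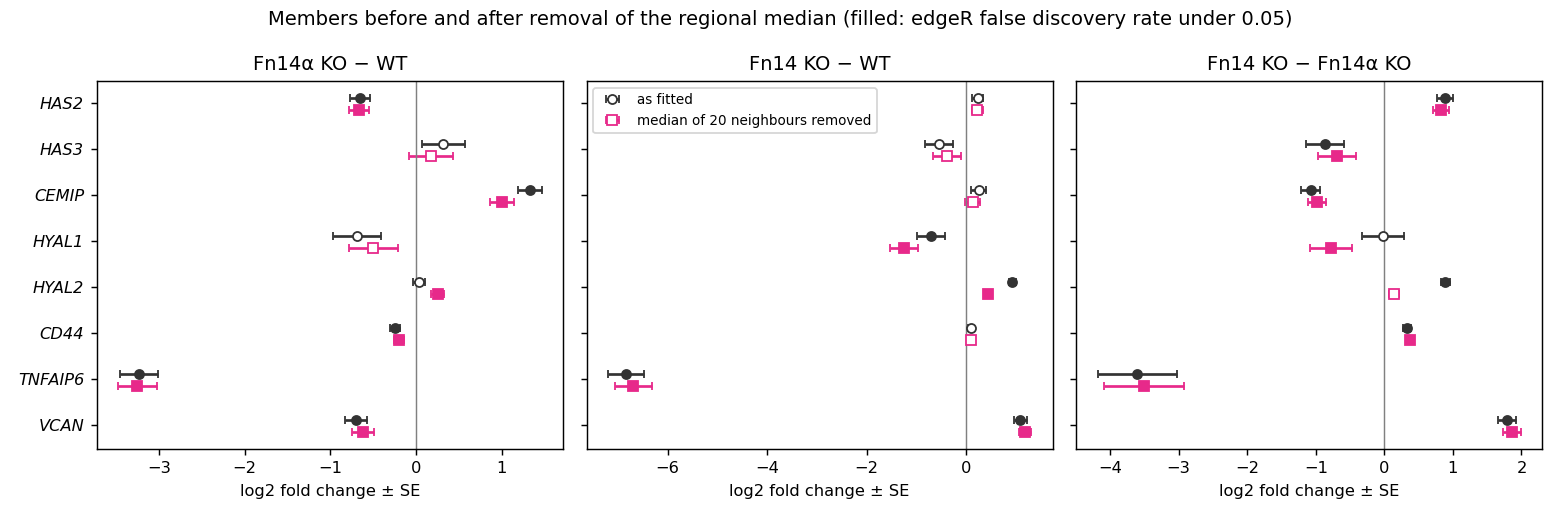
Log2 fold change with its SE (horizontal axes) of the 8 tested members in the comparisons of the knockouts, as fitted (black circles) and after the median log2 fold change of the 20 nearest tested genes was removed (pink squares). Filled symbols passed an edgeR false discovery rate of 0.05. HYAL2 moved from 0.89 to 0.14 between the knockouts, while TNFAIP6, VCAN, HAS2 and CEMIP stayed on the same side of 0 and past the threshold wherever they had passed.

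HYAL1, the lysosomal hyaluronidase and a neighbour of HYAL2, was low. It had 18 to 28 counts per library in WT (0.64, 0.46, 0.55 and 0.36 FPKM). TWEAK libraries had 14 to 22 counts, those of the Fn14alpha knockout 12 to 16 (0.34, 0.28, 0.36 and 0.28 FPKM) and those of the Fn14 knockout 7 to 18 (0.30, 0.28, 0.41 and 0.14 FPKM). The means fell in that order, and WT overlapped the other groups through its replicate 4 alone. The Fn14 knockout passed against WT (−0.71 ± 0.28, edgeR adjusted p = 0.0394). It did not without WT replicate 1 (adjusted p = 0.116), WT replicate 3 (0.0843), Fn14 knockout replicate 2 (0.0713) or Fn14 knockout replicate 4 (0.153), without the low-count filter (0.0984), or with only the 2 groups fitted (0.0814), over a range of 9.27e-04 to 0.153. The Fn14alpha knockout did not pass (−0.69 ± 0.28, edgeR adjusted p = 0.0518), and passed without WT replicate 4 (0.0298, range 0.0278 to 0.184). Between the knockouts HYAL1 differed by −0.02 ± 0.31 and did not pass (edgeR adjusted p = 0.960). With the median of its 20 nearest genes (0.77) removed the difference was −0.78 and passed (adjusted p = 0.0390, range over its alternatives 0.0390 to 1).

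Of 6 further genes of hyaluronan degradation, 4 were tested and HYAL4 and SPAM1 were not. None of the 4 was called after TWEAK by edgeR or by DESeq2, and 1 had an unadjusted edgeR p under 0.05. Against WT, the Fn14alpha knockout had lower CEMIP2, a membrane relative of CEMIP, which fell from 5.86 ± 0.679 to 3.46 ± 0.293 FPKM (−0.79 ± 0.09, edgeR adjusted p = 1.42e-07), and the lysosomal enzyme gene GUSB rose by 0.29 on the log2 scale. With the median of the 20 nearest genes removed neither passed (CEMIP2 −0.20, edgeR adjusted p = 0.0929, and GUSB 0.17, adjusted p = 0.0935). CEMIP2 was also the 1 gene of these called in the Fn14 knockout, where it fell by 0.40 on the log2 scale (edgeR adjusted p = 4.66e-04).

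CD44 (ENSG00000026508, GRCh38 chromosome 11, 35138882 to 35232402, plus strand) is the main cell-surface receptor of hyaluronan. Its level was 71.18, 72.85, 68.76 and 63.49 FPKM in WT and 112.19, 109.3, 115.41 and 109.66 with TWEAK. All TWEAK libraries lay above all other 12 libraries, and the rise over WT was 1.68-fold within the 2 h of treatment (log2 fold change 0.75 ± 0.06, edgeR adjusted p = 1.34e-09). The Fn14alpha knockout was at 59.75, 58.91, 57.70 and 61.67 FPKM, below every WT library by a small margin, and 1.19-fold lower (−0.25 ± 0.06, edgeR adjusted p = 0.00132). The Fn14 knockout was at 63.51, 66.20, 70.46 and 70.07 FPKM, across the range of WT. There the log2 fold change was 0.09 ± 0.06 (edgeR adjusted p = 0.223), and −0.03 when total counts were used in place of TMM. Between the knockouts CD44 was 1.26-fold higher in the Fn14 knockout (0.33 ± 0.06, edgeR adjusted p = 2.76e-05).

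With 8089 to 18273 counts per library, CD44 was the most precisely counted member. Its gene model in GENCODE release 29 holds 39 transcripts, which differ in the variable exons of the stem, and a count per gene sums over them. CD44-AS1, on the opposite strand, had 8 counts over the WT libraries and 27 with TWEAK.

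Among 9 partners of CD44, namely the linkers to actin, the proteases that shed it and parts of gamma-secretase, MSN alone was called after TWEAK. MSN encodes moesin, a linker between CD44 and actin, and rose from 99.2 ± 11.6 to 120 ± 5.46 FPKM (0.34 ± 0.08, edgeR adjusted p = 0.0129), and was not called by limma on log2(FPKM + 1) (adjusted p = 0.0724) or without TWEAK replicate 3 (edgeR adjusted p = 0.0601). Of these partners 4 were higher and 3 lower in the Fn14alpha knockout. MSN was at 47.9 ± 1.97 FPKM (−1.08 ± 0.08, edgeR adjusted p = 3.41e-10) and the membrane protease MMP14 fell from 109 ± 3.90 to 62.3 ± 2.25 FPKM (−0.84 ± 0.06, adjusted p = 2.96e-11), while NF2, encoding merlin, rose by 0.36 on the log2 scale. With the median of its 20 nearest genes removed MSN was at −0.22 (edgeR adjusted p = 0.0479). The Fn14 knockout had 3 higher and 3 lower: NF2 rose by 0.59, MMP14 fell by 0.54 and ADAM17, a sheddase, fell by 0.89 on the log2 scale.

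Of 20 further receptors and binding proteins 6 were tested, and the endothelial receptors LYVE1 and STAB2 were at most at 0.02 and 0.06 FPKM. LAYN, which encodes the membrane receptor layilin, was called after TWEAK: it rose from 11.4 ± 0.471 to 23.5 ± 0.624 FPKM (1.10 ± 0.07, edgeR adjusted p = 1.78e-11), more than CD44 by fold, a difference that was not tested. From this list 1 was higher and 3 lower in the Fn14alpha knockout. PTX3, which encodes a secreted pentraxin, rose from 199.7 ± 18.9 to 254 ± 13.7 FPKM (0.31 ± 0.08, edgeR adjusted p = 0.00394), and LAYN fell by 0.28 and HABP4 by 0.54 on the log2 scale. Both genes called in the Fn14 knockout were lower, HAPLN3, a link protein gene, from 5.78 ± 0.443 to 3.06 ± 0.310 FPKM (−0.80 ± 0.11, edgeR adjusted p = 1.11e-06) and BCAN, a brain proteoglycan gene near the limit of detection (0.102 ± 0.0435 against 0.0225 ± 0.0222 FPKM), whose call was lost without WT replicate 4 and Fn14 knockout replicate 1 together (edgeR adjusted p = 0.0848).

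TNFAIP6 showed the largest differences among the members. TNFAIP6 (ENSG00000123610, GRCh38 chromosome 2, 151357592 to 151380046, plus strand) encodes TSG-6, a secreted protein that moves heavy chains of inter-alpha-inhibitor onto hyaluronan and is known as a gene induced by TNF and IL-1. Its counts were 94, 121, 112 and 114 in the WT libraries, 88, 123, 80 and 102 with TWEAK, 12, 6, 13 and 13 in the Fn14alpha knockout, and 1, 0, 0 and 2 in that of Fn14. The FPKM values were 4.18, 4.54, 4.49 and 4.5 (WT), 3.69, 5.18, 3.20 and 4.85 (TWEAK), 0.50, 0.28, 0.57 and 0.55 (Fn14alpha knockout) and at most 0.08 (Fn14 knockout). The wild-type groups overlapped, and both knockouts lay below every wild-type library and did not overlap each other. In bulk samples, fewer cells with the transcript and less of it per cell cannot be told apart.

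With TWEAK the TNFAIP6 libraries lay on both sides of the WT values at 2 h, and the difference did not pass (log2 fold change −0.01 ± 0.16, edgeR adjusted p = 0.977). Their SD was 0.938 FPKM with TWEAK and 0.166 in WT, a difference that was not tested. The Fn14alpha knockout was 9.39-fold below WT (−3.23 ± 0.23, edgeR adjusted p = 4.88e-11). The 3 counts of the Fn14 knockout gave a ratio to WT of 0.00698 (95% counting interval 0.00143 to 0.0205) and to the Fn14alpha knockout of 0.0648 (0.0129 to 0.202), with edgeR adjusted p = 1.53e-13 and 1.04e-05. These calls passed in every alternative tried, leaving out each library included.

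The bases before the start of TNFAIP6 and of CEMIP are shown because these members were lowest and highest, respectively, in the Fn14alpha knockout relative to WT. They are from RefSeq (GRCh38.p14), plus strand, and cover chr2:151357342-151357591 for TNFAIP6, whose RefSeq start is the start in the deposited table, and chr15:80779120-80779342 for CEMIP, ending before the start in the deposited table. Capitals mark a match to the AP-1 motif TGANTCA.
TNFAIP6: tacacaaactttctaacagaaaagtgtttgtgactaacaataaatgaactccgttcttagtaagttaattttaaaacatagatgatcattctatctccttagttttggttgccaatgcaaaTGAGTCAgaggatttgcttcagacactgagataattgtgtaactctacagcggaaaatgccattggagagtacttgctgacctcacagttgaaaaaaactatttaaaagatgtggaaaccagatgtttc
CEMIP: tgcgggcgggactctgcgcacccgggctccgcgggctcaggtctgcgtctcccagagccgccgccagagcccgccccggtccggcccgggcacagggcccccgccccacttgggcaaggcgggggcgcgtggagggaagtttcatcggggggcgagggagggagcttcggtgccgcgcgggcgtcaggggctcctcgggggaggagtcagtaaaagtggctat

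The 250 bases before the RefSeq start were searched on both strands in the 9 members with an entry (HAS2 had none). Relative to that start, the start in the deposited table lay at −8807 bases for HYAL1, −1887 for HAS3 and −289 for CD44. For these members the whole window lay inside the gene as counted. For VCAN (−126), HYAL2 (−37) and CEMIP (−27) the end of the window did. The AP-1 motif, TGANTCA, was found in TNFAIP6 alone, 129 to 123 bases before the start, and is found in 6.57% of 35116 promoters of the same length. The TEAD motif, CATTCC, was found in HYAL2 alone, 38 to 33 bases before its RefSeq start, against 11.9% of promoters. All but the first base of this match lay inside the gene as counted, which starts at −37. The kB consensus was found in none of the 9, against 5.21% of promoters. A match is a description of letters and not of a bound site. The 250 bases of TNFAIP6 were 34.4% G and C, and those of the other 8 members 50.8 to 74.4%.

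VCAN was the only member called in opposite directions in the knockouts. VCAN (ENSG00000038427, GRCh38 chromosome 5, 83471618 to 83582303, plus strand) encodes versican, a large proteoglycan that binds hyaluronan by its head and carries chondroitin sulfate chains. It was at 4.16, 4.49, 3.69 and 2.89 FPKM in WT and 4.49, 4.36, 4.63 and 4.00 with TWEAK, which overlapped (0.26 ± 0.13, edgeR adjusted p = 0.257). With the median of the 20 nearest genes (−0.18) removed, the TWEAK comparison passed (0.44, adjusted p = 0.0380, range over its alternatives 0.0380 to 0.598). The Fn14alpha knockout was at 2.73, 2.06, 2.29 and 2.5 FPKM, all below WT, and 1.62-fold lower (−0.70 ± 0.13, edgeR adjusted p = 2.22e-04). The Fn14 knockout was at 5.69, 7.42, 7.60 and 9.12 FPKM, all above WT, and 2.13-fold higher (1.09 ± 0.13, edgeR adjusted p = 4.02e-07). The direct comparison of the knockouts gave a 3.45-fold difference (1.79 ± 0.13, edgeR adjusted p = 3.63e-10). GENCODE release 29 holds 12 transcripts of VCAN, which the counts do not separate.

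HAPLN1, the link protein that locks versican onto hyaluronan and a neighbour of VCAN on the opposite strand, had 0 of 242125136 counts over all libraries. With a floor of 3 counts, 0 counts in a single library allow a level of up to 0.178 to 0.225 CPM (counts scaled to the library total), by counting error alone. With the same floor on the pooled counts of all libraries the limit is 0.0124 CPM.

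Of 12 genes that cleave versican or bind it in the matrix, 7 were tested. None was called after TWEAK by edgeR, DESeq2 or limma, and 0 had an unadjusted edgeR p under 0.05. Among them 3 were higher and 3 lower in the Fn14alpha knockout. TNC, encoding the versican ligand tenascin-C, fell from 16.2 ± 3.27 to 3.62 ± 0.503 FPKM (−2.20 ± 0.15, edgeR adjusted p = 5.34e-10), FBLN2, encoding fibulin-2, fell by 0.63 on the log2 scale, and FBLN1, encoding fibulin-1, rose from 9.32 ± 0.321 to 16.5 ± 0.405 FPKM (0.80 ± 0.06). There were 4 higher and 2 lower in the Fn14 knockout. FBLN2 rose from 8.0 ± 0.726 to 19.4 ± 1.36 FPKM (1.40 ± 0.08, edgeR adjusted p = 1.65e-13) and FBLN1 to 16.5 ± 1.00 FPKM (0.94 ± 0.06), while TNC fell to 6.73 ± 1.31 FPKM (−1.15 ± 0.14, adjusted p = 1.01e-06). With the median of its 20 nearest genes removed the rise of FBLN2 was 0.68 (adjusted p = 7.09e-08). Like VCAN, 2 genes of this list were called lower in the knockout of Fn14alpha and higher in that of Fn14, FBLN2 and FBN1, which encodes fibrillin-1. Of all genes 22.2% were called lower in the former and 26.6% higher in the latter. The share with both calls was not worked out, so this likeness is a description only. Between the knockouts FBLN2 differed by 2.03 ± 0.08 on the log2 scale (edgeR adjusted p = 2.87e-16), and by 1.37 with the median of its neighbours removed. FBN1 was at 13.8 ± 1.87 FPKM in WT, 11.9 ± 1.23 in the Fn14alpha knockout (−0.25 ± 0.10, edgeR adjusted p = 0.0406, a call that 11 of 17 alternatives ended) and 18.1 ± 2.60 in the Fn14 knockout (0.51 ± 0.10, adjusted p = 9.93e-05, lost with the median of its 20 nearest genes removed, 0.21, adjusted p = 0.0822). The protease gene ADAMTS15 differed the other way between the knockouts (−3.78 ± 0.31, adjusted p = 2.29e-10), at 1.01 ± 0.215 FPKM in the knockout of Fn14alpha and 0.0650 ± 0.0208 in that of Fn14.

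Over the 54 genes of the 5 lists around the members, 33 were tested. After TWEAK 4 were called, GFPT2, UAP1, LAYN and MSN, and all were higher (12.1% of those tested, against 6.87% of all genes). Against WT, 10 were higher and 12 lower in the Fn14alpha knockout and 10 higher and 11 lower in the Fn14 knockout, and between the knockouts 14 were higher and 10 lower. These shares, from 63.6 to 72.7%, stand beside backgrounds of 42.2 to 59.2%.

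**Figure D4:**
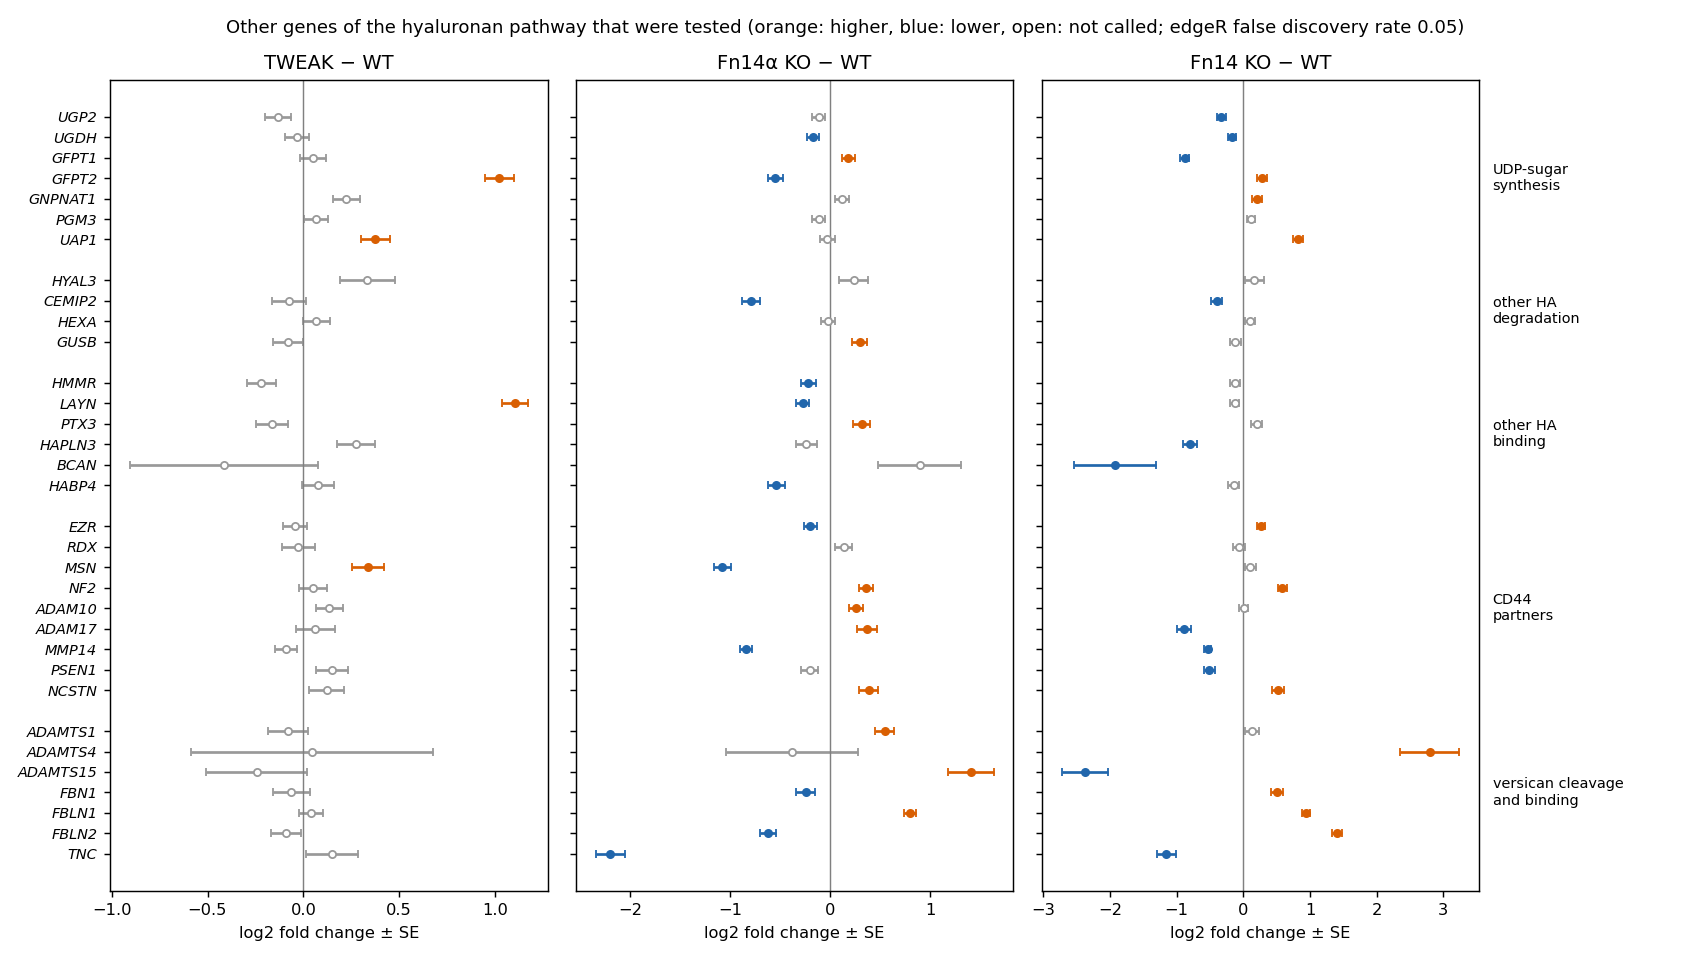
Log2 fold change with its SE (horizontal axes, a scale of its own in each panel) for the 33 tested genes of the 5 lists around the members, after TWEAK and in each knockout against WT. Orange points were called higher and blue points lower at an edgeR false discovery rate of 0.05, and open points were not called. After TWEAK 4 genes are orange, and in the knockouts calls lie on both sides of 0.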

How the data were processed

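RNA of 16 LX-2 libraries in 4 groups was measured by poly(A) RNA sequencing. The authors deposited a table of raw counts per Ensembl gene with FPKM beside them. Reads were processed with HTSeq 0.6.1, HISAT2 2.0.1, DESeq2, cutadapt 1.9.1 and FastQC 0.10.1, in roles and order not stated, under the build names GRCh38.p13 and hg38, per the submitters' processing notes. The deposited FPKM could be recomputed from the deposited counts, exonic lengths and column totals to within 0.005. The sources used here do not give the strand setting, the annotation release or the handling of reads with several positions. Depth was 13335919 to 16888606 counts per library, and the count of a gene limits its precision.

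Groups followed the labels. Counts were tested in edgeR 4.0.16 (R 4.3.3) by quasi-likelihood with TMM scaling, edgeR's group-wise filter on low counts and a fit of all 16 libraries with 1 mean for each group. The Benjamini-Hochberg method was applied over 16029 genes, with calls at a false discovery rate of 0.05, and the SE was taken as the log2 fold change over the square root of F. The fit was also tested on simulated data, the outcome of which is not given here and is not used as support. Ratios of few counts carry exact 95% counting intervals. Alternatives were DESeq2 1.42.0, limma 3.58.1 on log2(FPKM + 1) and log2(FPKM + 0.1), total-count scaling, no filter, only the 2 groups compared, a replicate block, each library left out, both libraries that stood away left out, and removal of the median of 20 neighbouring genes. The same alternatives were read for the called list genes after seeing the data. The genes named are all members, TNFRSF12A, up to 3 called genes with the smallest adjusted p from each list and comparison, and the 3 genes most like CD44 and HAS2. Receptors near 0, overlapping genes, markers, FBN1 and some list genes whose calls changed under the alternatives were named besides, after their values were seen. Promoters were to be searched also in the 50 bases after the RefSeq start, which were left out because they are transcribed. Some of the windows searched still reach into the gene as given in the deposited table. Members and lists were chosen with earlier results of these data known, so counts over them support nothing independently. A gene of the degradation list is not reported here, and counts over the lists leave it out.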

Additional observations from a re-analysis of the deposited data

Results flagged for a closer look

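VCAN differed between the knockouts in direction: it was lower than WT in the Fn14alpha knockout and higher in the Fn14 knockout, and the direct test gave a log2 difference of 1.79 (Fn14 knockout minus Fn14alpha knockout, edgeR adjusted p = 3.63e-10). HAS2 (−0.65 and 0.23), CD44 (−0.25 and 0.09) and HAS3 (0.32 and −0.54) also differed in sign against WT and passed the direct test, but were not called in both knockouts. The share of all genes with opposite calls was not worked out.

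In 3 of 36 sets of 4 replicates, 1 library stood away from its group by Dixon's gap over range, which chance gives in about 1 of 20 sets. WT replicate 1 had the lowest TNFAIP6 (4.18 FPKM, gap over range 0.861). TWEAK replicate 1 had the lowest HYAL1 (0.3 FPKM, 0.933). Replicate 4 of the Fn14 knockout had the lowest HYAL2 (16.82 FPKM, 0.931), which was still above every library of the other groups.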

How the results depend on the processing

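Of 544 alternative values for the 32 member comparisons, 511 kept direction and call, 7 lost a call, 14 gained one and 12 changed sign, none of the last being called on either side. HYAL2 after TWEAK went to −0.0152 on the log2 scale with total counts, −0.0167 with limma on log2(FPKM + 1) and −0.0186 on log2(FPKM + 0.1), and ran from −0.0185 to 0.0842 with 1 library left out. CD44 in the Fn14 knockout against WT went to −0.0324, −0.0308 and −0.0312 under the same settings. With 1 library left out, TNFAIP6 after TWEAK ran from −0.12 to 0.10 and HYAL1 between the knockouts from −0.25 to 0.21. HYAL1 gained a call there with the neighbours' median removed, at −0.78. The cause was not tested. With the replicate block, 2, 5, 4 and 7 members were called (TWEAK, Fn14alpha knockout and Fn14 knockout against WT, and between the knockouts), as without it. Over all genes the block gave 893, 6454, 8205 and 9241 calls, in place of 1101, 6771, 8472 and 9489. Same-numbered libraries had correlations of their deviations of −0.23 to 0.11, and 0, 2, 1 and 1 of 8 libraries correlated best with their own number. No effect shared by number was thus seen, and the labels do not say whether a number marks a shared batch. Depth limits HAS1, HAPLN1, HAS3 and HYAL1. Of 1207 values for the 71 calls among the list genes, chosen after seeing the data, 1118 kept direction and call, 78 lost the call and 11 changed sign, and 46 of the calls held in every alternative. With the neighbours' median removed, some changed sign and were called in the other direction. These were GFPT2 in the Fn14 knockout against WT (−0.46), and PGM3 (−0.33) and UGP2 (0.19) between the knockouts (edgeR adjusted p = 2.37e-05, 1.91e-04 and 0.0298).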

Other observations

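Across the 16 libraries, the genes whose log2 CPM followed CD44 most closely were FGD6, EHD1 and HBEGF, each with a Pearson r of 0.97, and those most like HAS2 were TENT4A (0.94), SMAGP (0.93) and ELK3 (0.93). These are descriptions over libraries that share 4 groups, chosen as the highest among all tested genes.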
